A study of Mus musculus with 5 samples.

Results

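Carbonyl reductases and aldo-keto reductases are enzymes that use NADPH to turn aldehydes and ketones into alcohols. The transcripts of 10 such genes were followed in mouse adipocytes: Cbr1, Cbr2, Cbr3, Cbr4, Akr1a1, Akr1b3, Akr1b7, Akr1b8, Akr1b10 and Akr7a5. They were chosen by gene symbol from the 24531 genes of the deposited transcript table, and each of the 10 is represented there by 1 RefSeq transcript. Of the 10, Cbr3 and Cbr1 rose the most in the Prmt1 knockout libraries, by 70.7-fold and 7.87-fold, while Akr1b7 was found at a trace level there and in 1 of the 3 control libraries.

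The libraries were made from poly-A RNA of primary adipocytes of the epididymal fat pad of C57BL/6N mice that had been on a high-fat diet (HFD) for 12 weeks. Group f/f (n = 3) is titled Prmt1 f/f and labelled wild type, f/f being the usual notation for loxP-flanked alleles. Group FKO (n = 2) is described as an adipocyte-specific knockout of Prmt1, the gene of an arginine methyltransferase that acts on histones and many other proteins. Both groups received the diet, so no lean animals enter any comparison. The Cre driver, the deleted exons, the age of the mice and whether each library came from its own animal are not stated in the sources read, and the p-values therefore measure only the spread between these libraries, which may be technical.

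Carbonyl reductases belong to the short-chain dehydrogenases and reduce quinones, prostaglandins and ketone-bearing drugs, whereas aldo-keto reductases form a separate family of barrel-shaped enzymes that reduce sugars, lipid aldehydes, steroids and prostaglandins. Several members of both families are known to respond to the oxidant-sensing transcription factor NRF2. In fat, such enzymes are known for clearing the reactive aldehydes that arise from lipid peroxidation and for producing F-type prostaglandins.

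Total estimated counts per library ranged from 43580154 to 57016997. The floor of 3 counts corresponded to 0.0526 to 0.0688 CPM (counts scaled to library size) before normalization between libraries. Prmt1 itself was measured at 34.1, 29.4 and 32.3 CPM in f/f 1, 2 and 3 and at 21.0 and 19.3 CPM in FKO 1 and 2. Both FKO libraries lay below the f/f libraries, by 1.58-fold (log2 fold change -0.66, SE 0.14, edgeR adjusted p = 0.0171), and the call was lost when either FKO library was left out (highest adjusted p 0.161). In bulk RNA, fewer cells of a type and less RNA per cell cannot be told apart.

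Each gene was tested in a fit over 14492 genes with edgeR, and a gene is called changed at an adjusted p of 0.05 or less. All 10 genes passed the filter on low counts. Of the 10, 4 were called higher in FKO (Cbr1, Cbr3, Akr1b8 and Akr1b10), beside 11.9% of all tested genes, and 2 were called lower (Cbr4 and Akr1b7), beside 13.4% of all tested genes. The groups did not overlap for 9 of the 10, 5 of them higher and 4 lower in FKO, beside 59.0% of all tested genes. For Akr1b7 the gap was only that between 0.170 CPM in f/f 2 (10 counts) and 0.166 CPM in FKO 2 (7 counts). The median log2 fold change was 0.25 over the 10 genes and -0.05 over all tested genes. Cbr1, Cbr3 and Akr1b10 were called in each of 14 alternative analyses, while Cbr4, Akr1b8 and Akr1b7 were not called when either FKO library was left out.

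**Figure D1:**
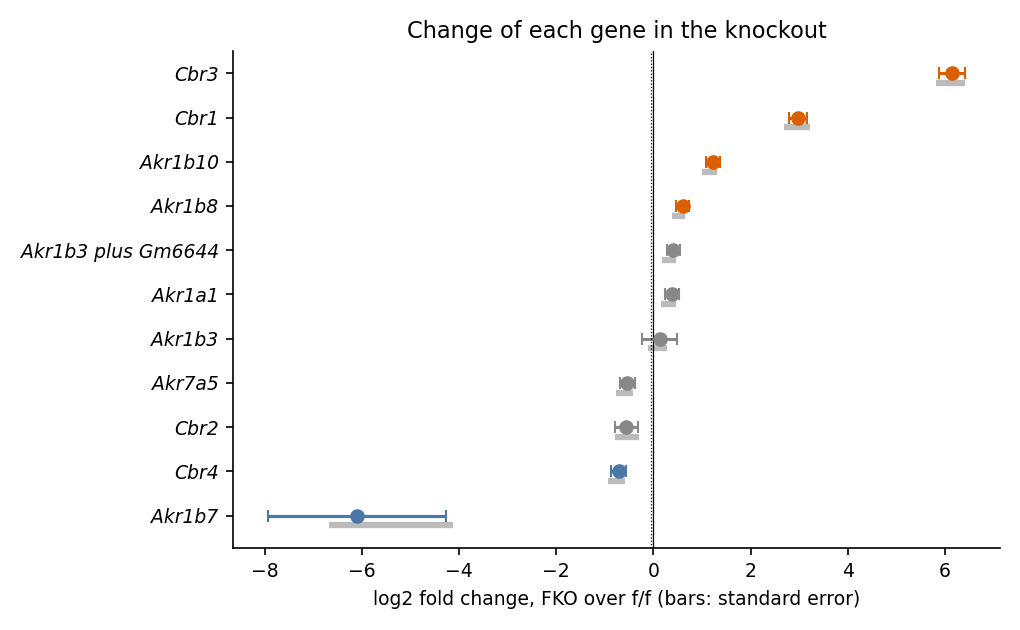
Log2 fold change of each gene in FKO over f/f, from edgeR, with bars of 1 standard error. Orange points were called higher, blue points lower and grey points neither, the thick grey bar under each point is the range over the alternative analyses, and the dotted line is the median of all tested genes. Cbr3 at 6.14 and Akr1b7 at -6.10 lie at the ends, and the error of Akr1b7 is much wider than that of Cbr3.

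Cbr1 and Cbr3 encode closely related cytosolic carbonyl reductases and lie side by side on mouse chromosome 16 in mm10. Cbr1 spans chr16:93607837-93610349 and Cbr3 chr16:93683219-93690991, with 72869 bp and no other gene of the table between them. Cbr1 is the broad-range enzyme, and Cbr3 acts on a narrower set of substrates. Since the pair moved together, the 250 bases before each start are shown, from RefSeq (GRCm38.p6, both on the + strand, chr16:93607587-93607836 and chr16:93682969-93683218), with matches to GCGTG on either strand in capitals.
Cbr1: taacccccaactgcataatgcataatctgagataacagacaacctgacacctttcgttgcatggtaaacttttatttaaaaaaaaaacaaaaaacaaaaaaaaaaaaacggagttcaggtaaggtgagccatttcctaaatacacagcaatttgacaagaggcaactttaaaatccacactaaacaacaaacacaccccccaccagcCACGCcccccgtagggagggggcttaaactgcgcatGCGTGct
Cbr3: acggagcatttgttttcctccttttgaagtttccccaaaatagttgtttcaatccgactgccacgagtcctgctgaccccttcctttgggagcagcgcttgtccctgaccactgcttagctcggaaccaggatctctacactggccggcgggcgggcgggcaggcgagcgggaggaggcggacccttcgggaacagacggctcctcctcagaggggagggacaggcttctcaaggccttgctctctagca

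The letters GCGTG, the core of the element bound by the aryl hydrocarbon receptor, matched at positions -43 (on the opposite strand, as CACGC) and -7 before the Cbr1 start, and not in the Cbr3 window. Windows of 300 bases, from 250 before to 50 after the start, were scanned on both strands, and 32.39% of 32851 RefSeq promoters hold GCGTG. TGACNNNGC, the core of the antioxidant response element, matched in none of the 9 genes with a RefSeq promoter, and in 12.39% of all promoters. The windows of Cbr1 and Cbr3 shared no run of 8 or more bases on the same strand, and 41.6% of the Cbr1 bases shown and 59.6% of the Cbr3 bases shown were G or C.

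Cbr3 was among the lower genes of the family in f/f, at 3.97, 3.69 and 5.36 CPM in f/f 1, 2 and 3, and stood at 245 and 370.4 CPM in FKO 1 and 2. The f/f values lay close together and both FKO libraries were far above them, FKO 2 the higher. The mean was 4.34 ± 0.892 CPM (SD, n = 3) in f/f and 308 ± 89.0 CPM (SD, n = 2) in FKO, a 70.7-fold difference (log2 fold change 6.14, SE 0.27, edgeR adjusted p = 0.000205). These levels rest on 179 to 343 estimated counts per f/f library and 11006 to 15587 per FKO library. By its log2 fold change Cbr3 ranked 15 of 14492 genes, and by mean FPKM (the fragment count scaled to transcript length and to library size) it moved from rank 8616 in f/f to rank 287 in FKO.

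Cbr1 was measured at 49.0, 49.3 and 46.9 CPM in f/f 1, 2 and 3, and at 313 and 449 CPM in FKO 1 and 2. The f/f libraries were nearly equal, with a coefficient of variation of 2.67%, lower than that of all but 2.05% of tested genes, and the FKO libraries differed from each other with one of 25.3%. The f/f mean was 48.4 ± 1.29 CPM (SD, n = 3) and the FKO mean 381 ± 96.3 CPM (SD, n = 2), a 7.87-fold difference (log2 fold change 2.98, SE 0.18, edgeR adjusted p = 0.000504). Over the 14 alternatives the log2 fold change of Cbr1 stayed between 2.69 and 3.21 and that of Cbr3 between 5.82 and 6.41.

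Because reads of similar neighbours can be assigned to either gene, the pair was also tested as a sum. Only 2.4% of the 31-base words of the Cbr1 transcript occur in Cbr3 transcripts, and 2.54% of those of Cbr3 occur in Cbr1 transcripts. Of the Cbr1 words, 16.9% occur in some other annotated gene. The sum stood at 53.0, 53.0 and 52.3 CPM in f/f 1, 2 and 3, and at 557 and 819 CPM in FKO 1 and 2. FKO was 13.1-fold higher (log2 fold change 3.71, SE 0.20, edgeR adjusted p = 0.000353), and the sum was called in each of the 14 alternatives.

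The make-up of the pair differed as well as its total. Per transcript length, Cbr3 made up 6.96%, 6.48% and 9.55% of the summed FPKM of Cbr1 and Cbr3 in f/f 1, 2 and 3, and 42.0% and 43.3% in FKO 1 and 2. The share was 35.0 percentage points higher in FKO, with every FKO library above every f/f library. An exact two-sided permutation test gave p = 0.1, which is the smallest value that 10 assignments of 5 libraries allow.

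The genes on either side of the pair were not called in the fit of all 5 libraries. Setd4, the gene of a lysine methyltransferase that lies 4021 bp before Cbr1, stood at 3.64, 3.13 and 3.17 CPM in f/f and 4.18 and 3.23 CPM in FKO (log2 fold change 0.16, edgeR adjusted p = 0.653), and its sign was negative with library size alone, with FPKM and without FKO 1. Dopey2, which lies 20915 bp after Cbr3, stood at 75.8, 108 and 60.2 CPM in f/f 1, 2 and 3 and at 112 and 118 CPM in FKO 1 and 2. Its groups did not overlap (log2 fold change 0.50, edgeR adjusted p = 0.164), and it was called higher in 1 of 14 alternatives, without f/f 2 (adjusted p = 0.0331).

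Cbr2 and Cbr4, the mitochondrial carbonyl reductases, had negative log2 fold changes, and Cbr4 alone of them was called. Cbr4 is known in human cells as a subunit of the ketoacyl reductase of mitochondrial fatty acid synthesis. It was measured at 34.0, 26.4 and 27.9 CPM in f/f and at 18.4 and 17.4 CPM in FKO. Both FKO libraries lay below all f/f libraries, by 1.64-fold (log2 fold change -0.72, SE 0.16, edgeR adjusted p = 0.0203), and the call was lost without FKO 1 (adjusted p = 0.129) or FKO 2 (adjusted p = 0.154).

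Cbr2, known as the abundant carbonyl reductase of mouse lung, stood at 36.5, 35.0 and 56.5 CPM in f/f and at 29.9 and 28.2 CPM in FKO. The FKO libraries were below the f/f libraries, of which f/f 3 was much the highest. The difference did not pass the test (log2 fold change -0.55, SE 0.23, edgeR adjusted p = 0.12) and passed it in 0 of 14 alternatives (adjusted p from 0.0619 to 0.379). Summed macrophage markers were 1165, 880 and 1517 CPM in f/f 1, 2 and 3 and 397 and 554 CPM in FKO 1 and 2. The f/f order of the 3 libraries was thus the same for Cbr2 and for these markers. In FKO they differed, Cbr2 being higher in FKO 1 and the macrophage sum in FKO 2. NRF2 target genes and prostaglandin genes, lists read below, had sums in this f/f order as well. Those sums were 9140, 8837 and 10448 CPM, and 1478, 1441 and 1506 CPM, in f/f 1, 2 and 3. The sum of skeletal muscle markers had this f/f order too, at 96.8, 63.9 and 141 CPM in f/f 1, 2 and 3. Nearly all of that sum was Acta1 alone, at 95.8, 62.6 and 140 CPM, and Myh2 and Myh4 were at 0 in every library. In FKO 1 and 2 that sum was 134 and 112 CPM. The part of either cell type in the Cbr2 values was not tested.

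Among the aldo-keto reductases, Akr1a1 was the most abundant in both groups. It encodes aldehyde reductase, which in mice makes gulonate for ascorbate synthesis. Akr1a1 stood at 459, 424 and 490.1 CPM in f/f and at 564 and 628 CPM in FKO. Both FKO libraries were the higher ones, by 1.3-fold, but the difference did not pass the test (log2 fold change 0.38, SE 0.15, edgeR adjusted p = 0.103), and DESeq2 was the sole alternative of 14 to call it (adjusted p = 0.0478).

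Akr7a5 encodes a reductase of aflatoxin dialdehyde and succinic semialdehyde. It stood at 24.0, 25.2 and 31.1 CPM in f/f and at 18.5 and 18.5 CPM in FKO. Both FKO libraries were below the f/f libraries, by 1.45-fold, with an adjusted p just above the threshold (log2 fold change -0.53, SE 0.16, edgeR adjusted p = 0.0508), and 5 of 14 alternatives called it lower.

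The 4 Akr1b genes lie in a row on chromosome 6 in mm10, in the order Akr1b3, Akr1b8, Akr1b10 and Akr1b7 along 119208 bp. They did not move alike: Akr1b8 and Akr1b10 were called higher in FKO, Akr1b7 was called lower, and Akr1b3 was not called. To compare the pair of neighbours that moved in opposite directions, the 250 bases before the starts of Akr1b10 (chr6:34383997-34384246) and Akr1b7 (chr6:34412112-34412361) are shown from RefSeq (GRCm38.p6, both on the + strand), with the longest run they share in capitals.
Akr1b10: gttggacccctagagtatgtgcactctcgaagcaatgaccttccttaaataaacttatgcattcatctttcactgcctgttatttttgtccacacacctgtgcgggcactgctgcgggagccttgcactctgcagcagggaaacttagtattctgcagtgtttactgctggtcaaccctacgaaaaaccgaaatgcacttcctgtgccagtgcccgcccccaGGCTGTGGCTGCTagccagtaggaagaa
Akr1b7: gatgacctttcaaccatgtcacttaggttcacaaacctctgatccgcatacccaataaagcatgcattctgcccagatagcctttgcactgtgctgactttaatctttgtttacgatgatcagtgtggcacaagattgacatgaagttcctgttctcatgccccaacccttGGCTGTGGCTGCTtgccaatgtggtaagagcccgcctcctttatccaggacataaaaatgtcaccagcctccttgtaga

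The shared run of 13 bases, GGCTGTGGCTGCT, begins at position -28 before the Akr1b10 start and at position -79 before the Akr1b7 start. It was the longest run shared by any pair among the 9 promoter windows. Around it, a local alignment of the 300-base windows covered 79 columns, of which 74.7% were identical.

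Akr1b10 spans chr6:34384247-34396949. It was measured at 28.0, 24.4 and 23.9 CPM in f/f and at 56.5 and 62.1 CPM in FKO. Both FKO libraries were well above the f/f libraries, whose mean was 25.4 ± 2.24 CPM (SD, n = 3) against 59.3 ± 4.0 CPM (SD, n = 2). The difference was 2.33-fold (log2 fold change 1.22, SE 0.14, edgeR adjusted p = 0.00261), and the log2 fold change stayed between 1.00 and 1.31 over the 14 alternatives.

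Akr1b8, known as a reductase induced by fibroblast growth factor, spans chr6:34354164-34368454. It was measured at 16.0, 17.4 and 16.8 CPM in f/f and at 26.4 and 24.4 CPM in FKO. The groups did not overlap, and the spread within each was small beside the 1.52-fold difference (log2 fold change 0.60, SE 0.13, edgeR adjusted p = 0.0189). The call was lost with library size alone (adjusted p = 0.0835), with FPKM (0.067), without FKO 1 (0.179) and without FKO 2 (0.107).

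Akr1b7 spans chr6:34412362-34423137 and encodes an aldo-keto reductase first known from the mouse vas deferens, described as a prostaglandin F synthase and as a product of the stromal cells of mouse fat. Its estimated counts were 854, 10 and 637 in f/f 1, 2 and 3 and 5 and 7 in FKO 1 and 2. The scaled levels were 18.9, 0.170 and 9.95 CPM in f/f and 0.111 and 0.166 CPM in FKO. The f/f libraries did not form one level, since f/f 2 was close to the FKO libraries and f/f 1 and f/f 3 were far above them. The coefficient of variation within f/f was 96.9%, above that of 99% of tested genes.

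The fitted log2 fold change of Akr1b7 was -6.10 (SE 1.83, edgeR adjusted p = 0.0489). Summed over libraries, 12 counts in FKO stood against 1501 in f/f, and the ratio of FKO to f/f per total count was 0.0132, with an exact 95% interval from 0.00678 to 0.0230 that covers counting error only. The gene was called in 7 of the 12 alternatives that kept it. It was not called with no filter (adjusted p = 0.052), limma-voom (0.475), FPKM (0.101), without FKO 1 (0.203) or without FKO 2 (0.175), and it did not pass the filter without f/f 1 or without f/f 3.

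Markers of other cells were read beside Akr1b7, and their lists differed in how they ran across the libraries. The summed level of 10 mesothelial markers was 120.3, 57.5 and 95.6 CPM in f/f 1, 2 and 3 and 27.3 and 17.6 CPM in FKO 1 and 2. Of these, 10 of the 10 were called lower by edgeR, with a median log2 fold change of -2.11, and 6 by limma-voom. The sum had the same order as Akr1b7 within f/f, but that order was not particular to it. Short-chain reductases, a list read below, summed to 2694, 2394 and 2533 CPM in f/f 1, 2 and 3. Carbonyl-handling enzymes, also read below, summed to 2158, 1756 and 1927 CPM. The adipocyte marker Adipoq had this order as well, at 5778, 4420 and 4545 CPM, while the sum of adipocyte markers did not. Fibroblast and progenitor markers summed to 869, 1254 and 1335 CPM in f/f 1, 2 and 3, lowest in the library with the most Akr1b7, and to 453 and 445 CPM in FKO 1 and 2, with 7 of 13 called lower (median -1.48). The macrophage sum given above was lowest of f/f in f/f 2, as Akr1b7 was, but highest in f/f 3, and 8 of 12 of these markers were called lower (median -1.37). Of 10 endothelial markers, 0 were called by edgeR and 0 by DESeq2, and 1 had an unadjusted p of 0.05 or less.

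Since Akr1b7 is known from the vas deferens, a joint list of markers of the epididymal and vas deferens epithelium was also read. No list of vas deferens markers alone was read. Of 21 in the table, 16 were at 0 in every library, among them Gpx5, Lcn5 and Lcn8, which are known epididymal genes. Crisp1 stood at 6.28, 0.357 and 0.984 CPM in f/f 1, 2 and 3 and at 0 in both FKO libraries. Rnase10, the other of the 2 that were tested, ran the other way at a low level, with 0.133, 0.153 and 0.0937 CPM in f/f 1, 2 and 3 and 0.733 and 0.689 CPM in FKO 1 and 2 (log2 fold change 2.48, edgeR adjusted p = 0.0155). The mesothelial sum and Crisp1 were thus both highest in f/f 1, the library with the most Akr1b7, and the part of any of these cells in the Akr1b7 values was not tested. Adipocyte markers summed to between 82044 and 91875 CPM in f/f and to 129173 and 113563 CPM in FKO. Of these 20, 6 were called higher, 0 lower and 14 neither (median log2 fold change 0.34), and DESeq2 called 7 higher and 1 lower. The adipocyte markers Adipoq and Plin1 stood at 1056 CPM or more in every library. Neither was called, and some other markers of the list had negative log2 fold changes.

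**Figure D2:**
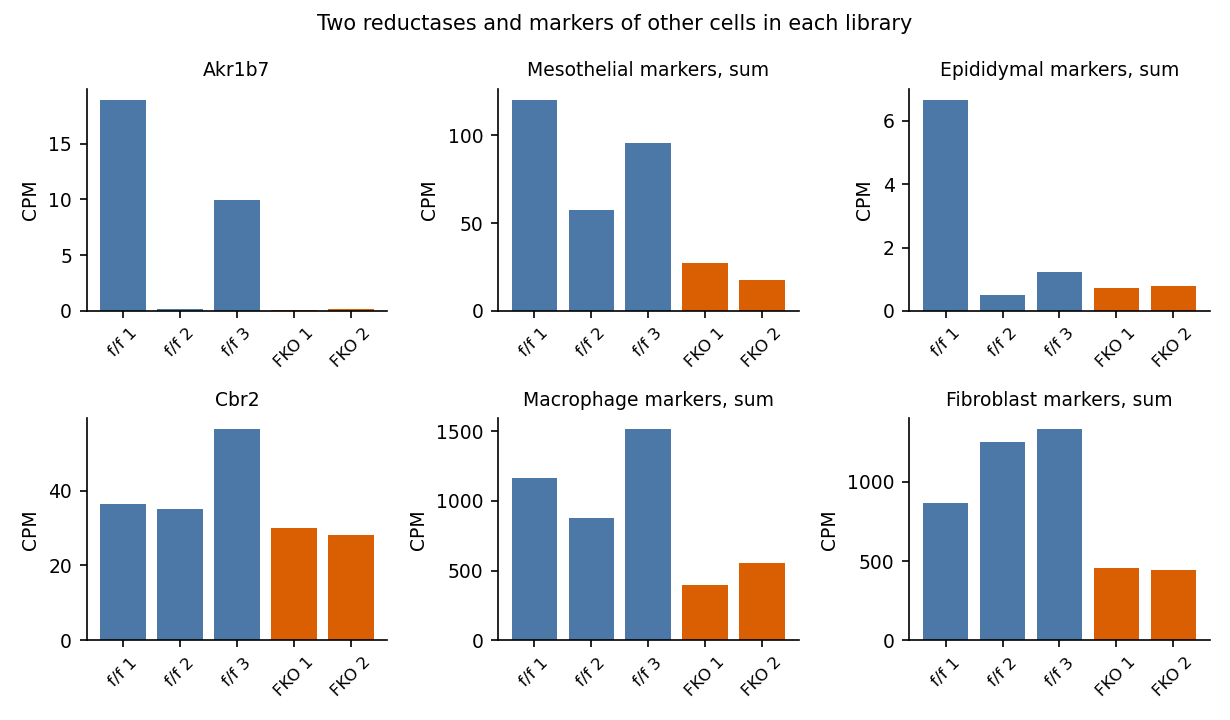
Bars give the CPM of Akr1b7 and Cbr2 and the summed CPM of mesothelial, epididymal, macrophage and fibroblast markers in each library, f/f in blue and FKO in orange, with axes starting at 0. Akr1b7, the mesothelial sum and the epididymal sum have the same order in f/f (f/f 1, f/f 3, f/f 2). The epididymal sum is mostly Crisp1 in f/f and mostly Rnase10 in FKO, and its FKO bars stand above f/f 2, unlike those of Akr1b7. Cbr2, the macrophage sum and the fibroblast sum are each highest in f/f 3.

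Akr1b3 encodes aldose reductase, the entry enzyme of the polyol pathway from glucose to fructose. The table places it at chr6:34303930-34317489 and lists over it, at chr6:34303934-34317443, the gene Gm6644, which RefSeq annotates on chromosome 1 as a transcribed pseudogene. Of the 31-base words of the Akr1b3 transcript, 61.0% occur in Gm6644, and of those of Gm6644, 89.9% occur in Akr1b3. The table assigned 65 to 107 estimated counts per library to Akr1b3 and 5950 to 9248 to Gm6644, so Akr1b3 made up between 0.666% and 1.34% of the summed FPKM of both. The level of Akr1b3 taken alone is therefore uncertain.

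Taken alone, Akr1b3 stood at 1.88, 1.82 and 1.01 CPM in f/f and 1.67 and 1.76 CPM in FKO, and the groups overlapped (log2 fold change 0.13, SE 0.37, edgeR adjusted p = 0.825). Its sign was negative with library size alone, with FPKM, with the replicate block and without f/f 3. Summed with Gm6644, an analysis added after seeing the data, the level was 134, 130 and 145 CPM in f/f and 174 and 189 CPM in FKO. Both FKO libraries lay above the f/f libraries, and the difference of 1.33-fold did not pass the test (log2 fold change 0.41, SE 0.14, edgeR adjusted p = 0.0637), though it did with DESeq2 (0.0241) and without f/f 3 (0.0473).

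The 4 Akr1b genes summed to 64.8, 43.8 and 51.6 CPM in f/f and to 84.6 and 88.5 CPM in FKO. FKO was 1.62-fold higher (log2 fold change 0.70, SE 0.19, edgeR adjusted p = 0.0339), and 7 of 14 alternatives called the sum. Per transcript length, Akr1b7 held 30.6%, 0.413% and 20.2% of the summed FPKM of the cluster in f/f 1, 2 and 3 and 0.112% and 0.172% in FKO 1 and 2. Among these 4 genes as assigned, Akr1b7 was thus a major part in f/f 1 and f/f 3 and a trace in the other libraries. All shares given here leave out Gm6644, which lies over Akr1b3. With Gm6644 the summed FPKM was 150, 130 and 161 in f/f 1, 2 and 3, of which Akr1b7 was 15.5, 0.139 and 8.80. The difference of the mean shares, FKO minus f/f, was -16.9 percentage points, and an exact two-sided permutation test gave p = 0.2, where 0.1 is the smallest value the design allows. The share of Akr1b10 was 42.0%, 55.3% and 45.2% in f/f 1, 2 and 3, against 66.3% and 69.7% in FKO 1 and 2.

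The genes beside the cluster were not called by edgeR. Slc35b4, a nucleotide sugar transporter gene before Akr1b3, stood at 73.3, 82.3 and 50.2 CPM in f/f 1, 2 and 3 and at 115 and 95.8 CPM in FKO 1 and 2. Its groups did not overlap (log2 fold change 0.62, edgeR adjusted p = 0.0833), and DESeq2 alone of 14 alternatives called Slc35b4 higher (adjusted p = 0.0407). Bpgm, the gene of bisphosphoglycerate mutase after Akr1b7, had one of -0.01 (edgeR adjusted p = 0.957), whose sign was positive in 4 alternatives.

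The order of levels per transcript length differed between the groups. In f/f, mean FPKM ran from Akr1a1 (340 ± 39.5, SD, n = 3) through Cbr1 (46.9 ± 0.951), Cbr2 (44.2 ± 14.7), Cbr4 (27.6 ± 3.47), Akr1b10 (19.8 ± 1.36), Akr7a5 (17.1 ± 3.29), Akr1b8 (13.4 ± 0.876), Akr1b7 (8.13 ± 7.68) and Cbr3 (3.91 ± 1.00) to Akr1b3 (1.15 ± 0.314). The ranges of Cbr1 and Cbr2, of Akr1b10 and Akr7a5, of Akr1b8 and Akr1b7, and of Akr1b7 and Cbr3 overlapped, and the other neighbours did not. The order leaves out Gm6644, which lies over Akr1b3. Summed with Gm6644, Akr1b3 would stand between Akr1a1 and Cbr1, at 106 ± 11.4 FPKM (SD, n = 3).

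In FKO, mean FPKM ran from Akr1a1 (379 ± 35.5, SD, n = 2) through Cbr1 (317 ± 85.5), Cbr3 (237 ± 72.5), Akr1b10 (39.8 ± 3.35), Cbr2 (25.6 ± 0.606), Akr1b8 (17.5 ± 0.637), Cbr4 (14.4 ± 0.346), Akr7a5 (10.1 ± 0.180) and Akr1b3 (1.09 ± 0.0631) to Akr1b7 (0.0836 ± 0.0288). Only the ranges of Akr1a1 and Cbr1 and those of Cbr1 and Cbr3 overlapped between neighbours in this order. Summed with Gm6644, Akr1b3 would stand between Cbr3 and Akr1b10, at 121 ± 9.11 FPKM (SD, n = 2). As assigned, Cbr3 held place 9 of the 10 in f/f and place 3 in FKO. With Gm6644 added to Akr1b3, Cbr3 would be last in f/f and still at place 3 in FKO.

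**Figure D3:**
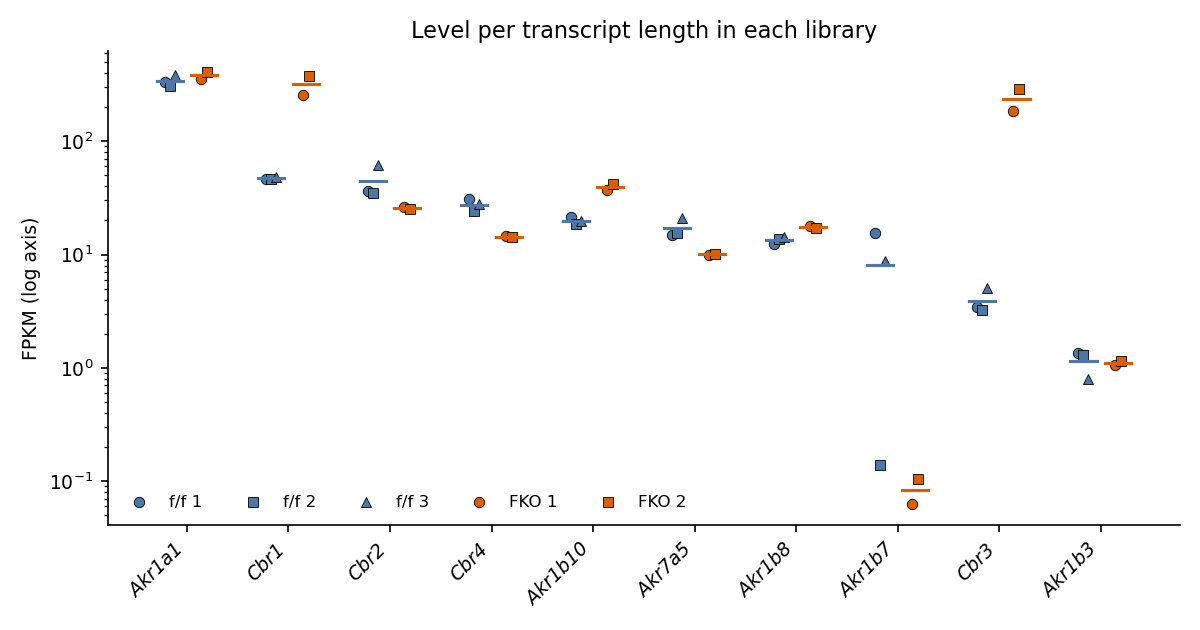
FPKM of each gene in each library on a log axis, f/f in blue and FKO in orange, with a line at each group mean. Cbr1 and Cbr3 lie far apart between the groups, Akr1a1 stays near the top of the plot in both, and f/f 2 falls beside the FKO libraries for Akr1b7 (0.139 against 0.0633 and 0.104 FPKM).

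Summed over the 10 genes, the FPKM was 513, 463 and 589 in f/f 1, 2 and 3 and 904 and 1181 in FKO 1 and 2. Akr1a1 supplied 64.4%, 65.9% and 65.0% of it in f/f 1, 2 and 3, against 39.2% and 34.2% in FKO 1 and 2. Cbr1 and Cbr3 together supplied 9.67%, 10.7% and 9.0% in f/f 1, 2 and 3, against 49.0% and 56.5% in FKO 1 and 2. Every FKO library thus had a higher total than every f/f library, with a larger part of it from Cbr1 and Cbr3. These totals and shares leave out Gm6644. Its FPKM was 99.4, 96.2 and 118 in f/f 1, 2 and 3 and 113 and 126 in FKO 1 and 2.

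**Figure D4:**
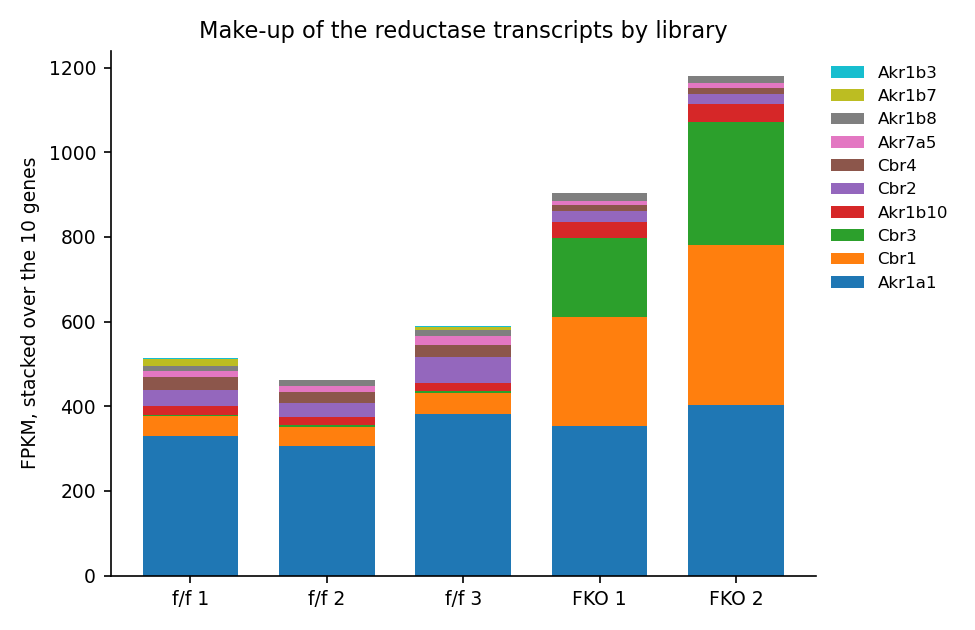
Stacked bars of the FPKM of the 10 genes in each library, with Akr1a1 at the base, Cbr1 and Cbr3 above it and the other 7 genes on top. The bars reach 463 to 589 FPKM in f/f and 904 and 1181 FPKM in FKO, and Cbr3 is barely visible in f/f.

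Other genes of the same chemistry were read from lists of related enzymes. Over all tested genes, 11.9% were called higher and 13.4% lower. Of 14 other aldo-keto reductase genes 8 were tested, of which 0 were called higher and 2 lower by edgeR, with a median log2 fold change of -0.72. At an unadjusted p of 0.05 or less the counts were 0 and 3, and with DESeq2 they were also 0 and 3. The 2 called by edgeR were Kcnab2, a potassium channel beta subunit with an aldo-keto reductase fold (-1.41, adjusted p = 0.0147), and Akr1c12, a steroid reductase (-1.0, adjusted p = 0.0400). The call of Akr1c12 was lost with each replicate left out and with the replicate block (highest adjusted p 0.225), and that of Kcnab2 without FKO 1 (0.108) or FKO 2 (0.0662).

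Of 31 tested short-chain carbonyl and steroid reductases other than the Cbr genes, 7 were called higher and 2 lower, with a median log2 fold change of 0.25. Rdh12, a retinal reductase, was higher at a low level, with 0.355, 0.170 and 0.187 CPM in f/f and 4.31 and 3.35 CPM in FKO (log2 fold change 4.03, edgeR adjusted p = 0.00186). Hsd17b12, a ketoacyl reductase of fatty acid elongation, Rdh11, a retinal reductase, and Decr1, a dienoyl reductase of fatty acid oxidation, had log2 fold changes of 1.73, 1.37 and 1.32. Dhrs3, which reduces retinal, was called lower at -0.99, a call lost without FKO 1 (edgeR adjusted p = 0.152) or FKO 2 (0.0862).

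Aldehyde dehydrogenases oxidize the aldehydes that the reductases reduce. Of 17 tested, 6 were called higher and 5 lower, with a median log2 fold change of 0.25. Aldh3b2, Aldh1a7 and Aldh5a1, which encodes succinic semialdehyde dehydrogenase, had log2 fold changes of 1.90, 1.69 and 1.62. The retinal dehydrogenases Aldh1a2 and Aldh1a1 were called lower, at -2.39 and -1.12, the latter not without FKO 1 (edgeR adjusted p = 0.0593).

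Alcohol dehydrogenases, polyol enzymes and other carbonyl-handling enzymes were called higher in 5 and lower in 2 of 14, with a median of 0.45. Sord, the sorbitol dehydrogenase that follows aldose reductase in the polyol pathway, stood at 98.6, 106 and 94.2 CPM in f/f and at 259 and 293 CPM in FKO (log2 fold change 1.47, SE 0.14, edgeR adjusted p = 0.00157). Every FKO library was above every f/f library, while the step before it, Akr1b3 with Gm6644, did not pass the test. Ephx2, the soluble epoxide hydrolase of lipid epoxides, and Esd, an esterase that completes formaldehyde detoxification, had log2 fold changes of 2.33 and 1.39, and Adh1, an alcohol dehydrogenase, had 0.91. Ketohexokinase, encoded by Khk, was called lower at -1.12. Neither Adh1 nor Khk was called without FKO 1 (edgeR adjusted p = 0.0565 and 0.0619) or FKO 2 (0.053 and 0.0716).

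Prostaglandin genes were read because Cbr1 and Akr1b7 act on prostaglandins. Of 20 tested, 5 were called higher and 5 lower, with a median log2 fold change of -0.37. Pla2g4a, the phospholipase that releases arachidonate, and Ptges2, a prostaglandin E synthase, were higher at 1.88 and 1.22, and so was the exporter gene Abcc4 at 1.48. Ptgs2 and Ptgs1, the cyclooxygenases that make the precursor of all prostaglandins, were lower at -1.70 and -1.13. The list thus held calls in both directions at successive steps. Without FKO 2 the calls of Ptgs2, Abcc4 and Ptgs1 were lost (edgeR adjusted p = 0.0568, 0.0653 and 0.099), and without FKO 1 that of Ptgs1 (0.0828).

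NRF2 target genes, a list without the 10 reductases, were called higher in 25 and lower in 1 of 29 tested, with a median log2 fold change of 1.48. Over all tested genes the shares were 11.9% and 13.4%. Ephx1 and Ptgr1 stand both in this list and in that of carbonyl-handling enzymes. The higher call of Ephx1 was lost with library size alone and with FPKM, among others. Nqo1, the quinone reductase often used as the marker of the list, stood at 3.19, 3.62 and 1.76 CPM in f/f and at 13.5 and 28.8 CPM in FKO (log2 fold change 2.89, edgeR adjusted p = 0.00436). Gsta3, a glutathione transferase, and Pgd, Me1 and Tkt, enzymes of NADPH supply and the pentose phosphate pathway, had log2 fold changes of 2.74, 2.35, 1.93 and 1.70. The single gene called lower was Ptgr1, a prostaglandin reductase, at -1.28, a call lost without FKO 1 (edgeR adjusted p = 0.0565) or FKO 2 (0.0994). Hmox1 (0.17, adjusted p = 0.717), Fth1 (0.13, adjusted p = 0.657) and Gstm3 (4.11, adjusted p = 0.0867) were not called, and the signs of Hmox1 and Fth1 were negative with library size alone.

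**Figure D5:**
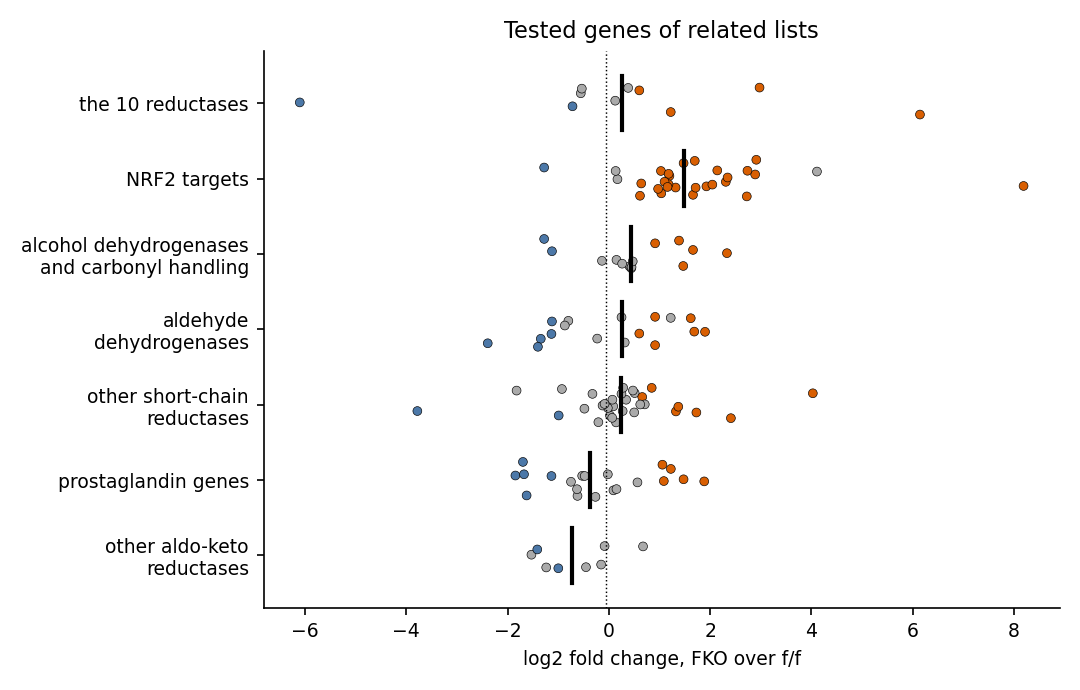
Each point is the log2 fold change of 1 tested gene, FKO over f/f, for the 10 reductases and 6 lists of related genes. Orange points were called higher, blue points lower and grey points neither, each black bar is the median of its list, and the dotted line is the median of all tested genes. The NRF2 list has its median at 1.48 and the other aldo-keto reductases have theirs at -0.72.

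Across the 5 libraries, 120 of 11901 genes with a mean of at least 1 CPM had a Pearson r of at least 0.99 with Cbr3 on the log2 CPM scale. The closest by name were Apoc2 (r = 0.9995, with 1.31, 1.29 and 1.39 CPM in f/f and 4.16 and 4.44 CPM in FKO), Scoc and Kcnq1ot1. For Akr1b7, 9 genes reached 0.99, the closest being Hsd17b11, Hs3st3b1 and Ccl3. Hsd17b11, with 64.0, 52.3 and 62.7 CPM in f/f and 51.3 and 52.1 CPM in FKO, had f/f 2 beside the FKO libraries as Akr1b7 did. The 5 points share their libraries and fall into the 2 groups, so these values only describe the pattern.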

How the data were processed

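RNA-seq of 5 libraries was read from 1 deposited table of 36780 RefSeq transcript rows, of which 36779 name a gene (24531 genes). Per the submitters' processing notes, HISAT2 2.1.0, HISAT, Bowtie2, StringTie 1.3.4d and build mm10 were used, with no role given. The table holds deposited estimated counts, whole numbers that are not scaled between libraries, and FPKM values that the authors scaled to the length of each transcript and to sequencing depth, per the file headers. Samples were grouped by their titles. The value columns left unused numbered 0.

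Estimated counts were summed per gene and tested in R 4.3.3 with edgeR 4.0.16 (quasi-likelihood test, TMM factors, filterByExpr, genotype as the sole term, 5 libraries, Benjamini-Hochberg adjustment over 14492 genes, threshold 0.05). CPM values use TMM-scaled library sizes, and the biological coefficient of variation was 23%. Shares of FPKM were compared by exact two-sided permutation tests. Alternatives were other scalings and filters, DESeq2 1.42.0, limma-voom and limma 3.58.1 on log2(FPKM + 0.1), a replicate block and each library left out. Intervals and floors cover counting error only. Libraries within a group differed beyond counting noise (median chi-square per gene 3.71 to 15.5, where noise gives 0.455).

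Promoters came from RefSeq tables of GRCm38.p6 (9 of 10 genes matched, Akr1b3 not), and 31-base words from GENCODE mouse transcripts.

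The members and gene lists were chosen with earlier results of these data known. Named are all 10 members, up to 4 genes of smallest p per list, up to 3 of highest mean level per marker list, the neighbours of each locus, the 3 genes most like Cbr3 and Akr1b7, and Prmt1. Some genes that meet this rule are not reported. Dhrs3, Aldh1a1, Khk, Ptgs1, Nqo1, Ptgr1, Hmox1, Fth1, Gstm3, Crisp1, Rnase10, Adipoq, Plin1, Gpx5, Lcn5, Lcn8 and Gm6644 were named after their values were seen.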

Additional observations from a re-analysis of the deposited data

How the results depend on the processing

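Of 139 alternative values for the 10 genes, 118 kept their direction and side of the threshold. All-gene calls were 3674 (1730 higher, 1944 lower). They were 909 without FKO 1 and 1022 without FKO 2, and between 909 and 3449 over the analyses that left out 1 library, and where 1 FKO library was left it is assumed to vary as the f/f libraries do. The other alternatives called between 3278 and 4627 genes. The median over all tested genes was -0.05 on the log2 scale, and -0.27 with library size alone (1030 higher, 2916 lower), -0.24 with FPKM (1088 higher, 2962 lower) and -0.17 with upper-quartile factors (1299 higher, 2415 lower), and changes in those fits are relative to that shift. The causes of these differences were not tested.

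Members called lower were 1 with no filter and 1 with limma-voom, 3 each with upper-quartile factors, library size alone, the stricter filter and DESeq2, and 0 to 2 with a library left out. Members called higher were 5 with DESeq2, 3 each with library size alone and FPKM, and 3 to 4 with a library left out. RLE factors and the replicate block gave 4 higher and 2 lower. The Akr1b sum fell below the threshold with upper-quartile factors (log2 fold change 0.57, adjusted p = 0.0634), library size alone (0.47, 0.0942) and FPKM (0.48, 0.096), and with a library left out it ran from 0.57 to 0.87, the call being lost without f/f 2, f/f 3, FKO 1 or FKO 2. Summed with Gm6644, it was 0.50 (adjusted p = 0.0400), and 7 of 14 alternatives called it.

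Signs reversed for genes near 0. Akr1b3 was -0.086 with library size alone, -0.034 with FPKM, -0.113 with the replicate block and -0.116 without f/f 3, within a range of -0.116 to 0.289 over the analyses that left out a library. Hmox1 was -0.072 with library size alone and ran from -0.058 without f/f 2 to 0.539 without f/f 3. Fth1 was -0.099 with library size alone and -0.070 with FPKM. Setd4 was -0.063 with library size alone and -0.060 with FPKM, and ran from -0.034 without FKO 1 to 0.338 without FKO 2. Bpgm was 0.0027 with RLE factors, 0.0063 without f/f 1, 0.022 without f/f 2 and 0.0023 without FKO 2, and reached -0.056 without f/f 3.

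The labels do not say that replicate numbers pair the libraries. Deviations from the group means correlated at 0.0657 for number 1 and -0.0812 for number 2. Libraries of unlike number ran from -0.144 (f/f 3 with FKO 1) to 0.144 (f/f 3 with FKO 2). The deviations of 2 FKO libraries mirror each other, so these values cannot show whether the numbers pair. With the replicate block, 3278 genes were called, 4 members higher and 2 lower, with log2 fold changes of 3.67 for the Cbr1 and Cbr3 sum and 0.70 for the Akr1b sum.

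The Cbr3 share exceeded that of f/f by 36.3 percentage points by counts and by 34.3 to 35.9 with a library left out. The Akr1b7 share differed by -16.1 points by counts and by -25.3 to -10.2 with a library left out. FKO had 2 libraries, and Akr1b7 in FKO rested on 12 counts.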
